A study of Mus musculus with 6 samples.

Results

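The 10 genes for G-protein-coupled receptors of small molecules and complement fragments were described in primary bone-marrow-derived macrophages (BMDMs), namely Cnr2, Gpr84, Gpr35, Gpr183, S1pr1, S1pr2, Ptafr, Hcar2, C5ar1 and C3ar1. They were taken by symbol from the deposited table, in which each of the 10 is 1 of 54532 listed genes. The set was chosen by TPM differences between the groups, in both comparisons below, with earlier results of these data known, so the values of the 10 genes are a description and carry no test. RNA was sequenced from 3 groups with 2 libraries each. They were untreated BMDMs, BMDMs given lipopolysaccharide (LPS, 100 ng/ml) for 2 h, and BMDMs kept for 6 h in 5 mM metformin before the same LPS stimulation (Met + LPS). All cells came from wildtype C57BL/6 mice and were differentiated in medium conditioned by L929 cells, and the design has no group with metformin alone. Per the study's methods the cells were plated as duplicates, and the sources used here do not say whether replicates 1 and 2 of a group came from separate mice, so the p-values measure the spread between these libraries, which may be technical.

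G-protein-coupled receptors span the plasma membrane with a bundle of helices and pass the binding of a ligand to heterotrimeric G proteins, which act on adenylyl cyclase and phospholipase C, and to arrestins, which end the signal. In macrophages such receptors sense lipids, metabolites and complement fragments that mark injury and infection, and they steer migration, phagocytosis and cytokine release. LPS, a glycolipid of Gram-negative bacteria, is sensed through TLR4, which is not a receptor of this class, and metformin is an antidiabetic drug that activates AMP-activated protein kinase.

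Transcript levels were deposited as TPM, a unit that corrects for gene length and sums to one fixed total for each library, so that levels can be set side by side between genes. Between 25457016 and 30762753 reads per library were recovered from the TPM values. The 12755 genes that reached 1 TPM in 2 or more of the libraries were fitted with limma on log2(TPM + 1), a scale that understates the change of low genes. Differences given as log2 are on this scale. Fewer cells of a type and less RNA per cell cannot be told apart in these bulk libraries. The median tested gene was 0.48 lower on the log2 scale in LPS than in untreated BMDMs, a shift that rescaling by the median ratio over genes took to -0.01, and differences between these groups are to be read against it. The 10 macrophage markers checked, such as Adgre1, Csf1r and Lyz2, were all past the filter. Of the 10, 1 was called lower in LPS than in untreated BMDMs, and Fcgr1 was called lower in Met + LPS than in LPS. The summed level of the 10, most of which was Lyz2 with up to 35840 TPM, was 45220 to 47220 TPM in untreated, 38050 to 38510 TPM in LPS, and 31310 to 31380 TPM in Met + LPS libraries. Of 7 B cell markers, a cell type that also expresses Cnr2, Gpr183 and S1pr1, only Cd22 and Cd79b passed the filter, Blk was at 0 in all libraries, and the 7 together reached 10.3 to 10.8 TPM in untreated, 5.43 to 5.77 TPM in LPS, and 6.03 to 6.46 TPM in Met + LPS libraries. The part of B cell RNA in the results was not tested.

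The receptors covered more than 3 orders of magnitude in untreated BMDMs. C3ar1 was the highest at 1414 ± 15.1 TPM (SD, n = 2), followed by C5ar1 (653 ± 29.6 TPM), Ptafr (422 ± 3.70 TPM), S1pr1 (94.9 ± 0.602 TPM), S1pr2 (81.1 ± 1.58 TPM), Cnr2 (43.6 ± 0.931 TPM) and Gpr183 (16.4 ± 2.10 TPM). Hcar2 and Gpr84 were next at 1.24 ± 0.399 and 0.898 ± 0.24 TPM, and their libraries overlapped, so that their order is open within the spread. Gpr35 was the lowest at 0.614 ± 0.0929 TPM and did not pass the filter on low values, which left 9 of the 10 receptors tested. After LPS the order was C5ar1, C3ar1, Ptafr, Gpr84, Hcar2, S1pr2, Gpr183, S1pr1, Cnr2 and Gpr35, with no overlap between neighbours. In Met + LPS the libraries of C5ar1 and C3ar1 overlapped, at 826 ± 8.53 and 810 ± 35.7 TPM (SD, n = 2 each), while the other neighbours in the order were apart. Summed over the 10 receptors, the level was 2695 to 2762 TPM in untreated, 2735 to 2761 TPM in LPS, and 2072 to 2173 TPM in Met + LPS libraries.

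**Figure D1:**
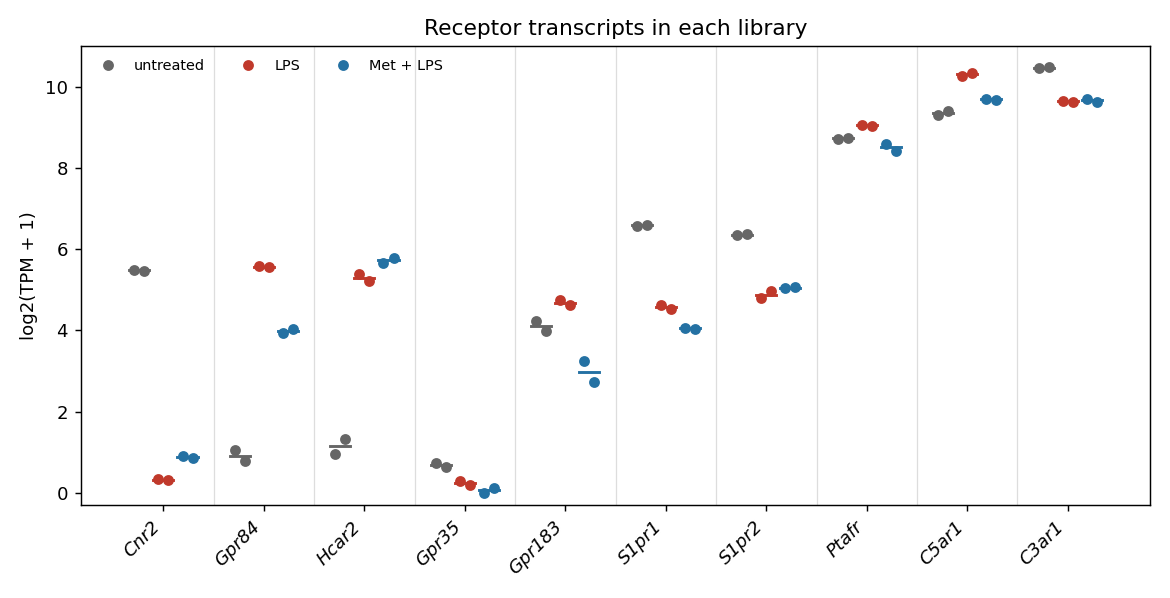
Transcript levels of the 10 receptors as log2(TPM + 1) on the vertical axis, with 1 point per library, a bar at the mean of the 2 libraries and the groups in grey (untreated), red (LPS) and blue (Met + LPS). Cnr2 was near 44 TPM in both untreated libraries and under 1 TPM in the other 4, whereas Gpr84 and Hcar2 were near 1 TPM in untreated and above 14 TPM in all LPS-stimulated libraries.

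Between LPS and untreated BMDMs, 5 receptors were higher in both LPS libraries and 5 were lower in both. Such a lack of overlap was found for 91.6% of all tested genes, which were higher in 20.1% and lower in 71.5%. Of the 9 tested receptors, 4 were past an absolute log2 difference of 2 and an adjusted p-value of 0.01 in limma (Gpr84 and Hcar2 higher, Cnr2 and S1pr1 lower), the cut-offs that 6.08% of all tested genes passed (3.72% higher and 2.37% lower, or 474 and 302 genes, which became 663 and 129 after rescaling). Between Met + LPS and LPS, 6 receptors were lower in both Met + LPS libraries, 3 were higher in both, and C3ar1 overlapped, against 73.8% of all tested genes without overlap (33.8% higher and 40.0% lower). Of the 9, 2 were past an absolute log2 difference of 0.7 and an adjusted p-value of 0.01 in limma (Gpr84 and Gpr183, both lower), cut-offs passed by 8.28% of all tested genes (4.19% higher and 4.09% lower). The receptors were chosen with these contrasts known, and Cnr2, Gpr84 and Hcar2 passed the filter only through the groups in which they were high, so nothing is read from these counts. Both comparisons use the same LPS libraries. After rescaling, the LPS differences of the receptors that stood closer to the median gene were 1.47 for C5ar1, 1.06 for Gpr183, 0.85 for Ptafr and -0.96 for S1pr2, all with the sign they had before.

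**Figure D2:**
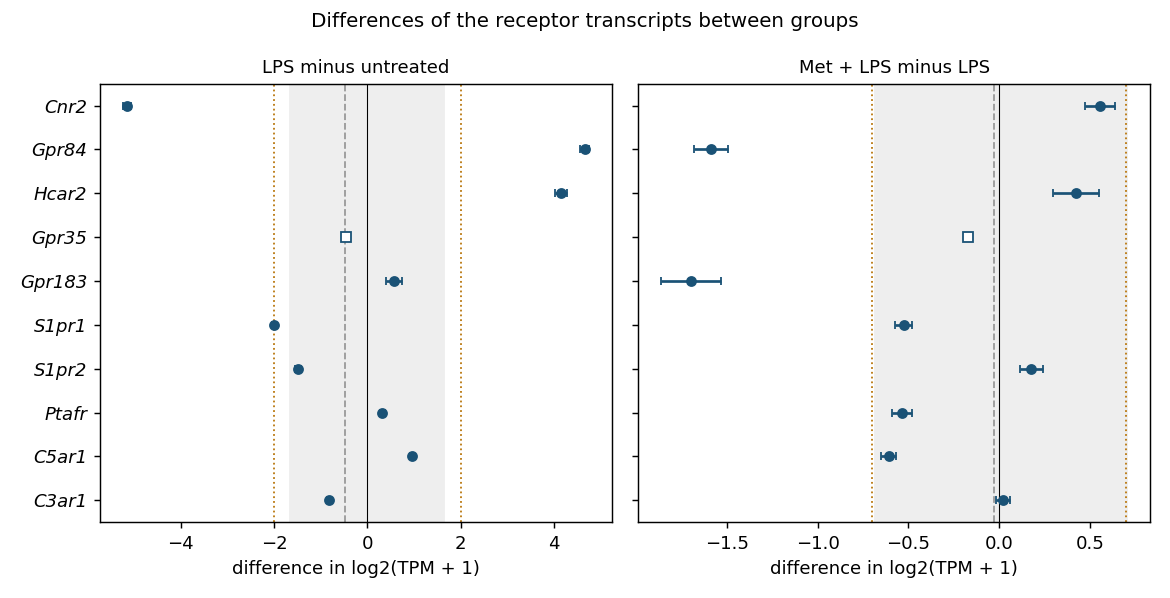
Differences in log2(TPM + 1) of the 10 receptors between LPS and untreated (left) and between Met + LPS and LPS (right), with standard errors from the limma fit; the grey band spans the 5th to 95th percentile of all tested genes, the dashed line their median, the dotted lines the cut-offs, and the open square Gpr35, which was not tested. In the left panel Cnr2 (-5.15), S1pr1 (-2.01), Gpr84 (4.65) and Hcar2 (4.15) lie outside the band, and in the right panel Gpr84 (-1.59) and Gpr183 (-1.70) do.

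Cnr2 (ENSMUSG00000062585, GRCm38 chromosome 4, 135895394 to 135920207) encodes the cannabinoid receptor CB2, a Gi-coupled receptor of the endocannabinoids 2-arachidonoylglycerol and anandamide that is found mainly on immune cells. It was at 44.2 and 42.9 TPM in untreated replicates 1 and 2, at 0.264 and 0.241 TPM in LPS, and at 0.864 and 0.823 TPM in Met + LPS. The groups did not overlap, and Met + LPS lay between the other groups. Behind these values stood 1339 and 1224 reads in untreated libraries, 8 and 7 reads in LPS and 26 and 29 reads in Met + LPS. The level in LPS was 0.579% of the untreated level, a 173-fold lower value, and the 15 reads of both LPS libraries give it a 95% exact counting interval of 104 to 309-fold. The fitted log2 difference was -5.15 (standard error 0.08), -4.76 after rescaling and -7.32 on recovered reads with limma voom, which adds no pseudocount of 1 TPM. Met + LPS was 3.34-fold above LPS, with a 95% exact counting interval of 1.86 to 6.35 over 55 reads against 15, and it was at 1.94% of the untreated level. On the log2(TPM + 1) scale this difference was 0.56 (standard error 0.08), below the cut-off of 0.7, but it was 1.42 with a pseudocount of 0.1 and 1.67 with voom, which put it past the cut-offs. The direction was higher in Met + LPS in all of these. Both counting intervals pool the reads of the 2 libraries of each group, cover counting error only and are no test.

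The rows nearest to Cnr2 in pattern were found by the root-mean-square difference between log2(TPM + 1) values centred on each gene's mean over the 6 libraries. They were Lyl1, a basic helix-loop-helix factor of blood cells (difference 0.18), Sesn1, a sestrin that restrains mTORC1 (0.30), the processed pseudogene Gm11699 (0.32), the immunoglobulin-like receptor Cd300lb (0.33) and the zinc finger protein Zfp395 (0.43), against a median of 2.09 over all tested genes. Cd300lb went from 491 ± 5.77 to 22.8 ± 0.750 and 27.6 ± 1.25 TPM (SD, n = 2 each) in untreated, LPS and Met + LPS.

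RefSeq lists 2 starts for Cnr2, and the 250 bases before each are shown because this receptor lost nearly all of its transcript level after LPS, with the letters that would match a searched motif in capitals. A set of 7 motifs was searched on both strands of the windows from 250 bases before to 50 bases after each start, namely the κB consensus, the PU.1 box GAGGAA, the AP-1 site TGANTCA, an interferon-stimulated response element, the cyclic AMP response element, the ATF4 element and TATAAA. None of the 7 was found in either Cnr2 window, so no letter is in capitals, and this says only that these letters are not there.
Cnr2 upstream start, GRCm38.p6 chr4:135894939-135895188, plus strand: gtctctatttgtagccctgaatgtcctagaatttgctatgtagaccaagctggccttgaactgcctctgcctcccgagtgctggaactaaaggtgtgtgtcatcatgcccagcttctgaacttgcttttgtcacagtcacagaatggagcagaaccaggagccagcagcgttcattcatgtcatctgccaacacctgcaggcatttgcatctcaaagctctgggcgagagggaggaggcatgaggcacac
Cnr2 downstream start, GRCm38.p6 chr4:135911430-135911679, plus strand: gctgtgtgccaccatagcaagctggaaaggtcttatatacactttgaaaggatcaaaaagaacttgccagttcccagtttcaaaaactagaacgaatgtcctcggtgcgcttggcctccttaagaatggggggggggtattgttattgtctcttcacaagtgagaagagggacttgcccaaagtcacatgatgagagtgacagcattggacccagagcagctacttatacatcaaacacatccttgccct

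Enzymes that make and remove endocannabinoids were among the genes listed as ligand supply. Dagla, a diacylglycerol lipase that forms 2-arachidonoylglycerol, fell from 14.6 ± 0.614 TPM in untreated to 2.27 ± 0.233 TPM in LPS and stood at 5.43 ± 0.650 TPM in Met + LPS (SD, n = 2 each). Its log2 differences were -2.25 (adjusted p = 2.3e-06 in limma) and 0.98 (adjusted p = 0.00041 in limma), both past the cut-offs. Napepld, which releases anandamide from its membrane precursor, fell after LPS with a log2 difference of -2.10 (adjusted p = 6.9e-06 in limma), and its difference of 0.52 between Met + LPS and LPS missed the cut-offs, which it passed with a pseudocount of 0.1 (0.73) and with voom (0.77). After median-ratio rescaling, which removed the shift of the median gene, the LPS differences of Dagla (-1.80) and Napepld (-1.67) were no longer past 2. Daglb, the other diacylglycerol lipase, was at 58.4 ± 1.85 TPM in untreated, 26.9 ± 0.259 TPM in LPS and 24.3 ± 2.83 TPM with metformin before LPS. Mgll, the monoacylglycerol lipase that degrades 2-arachidonoylglycerol, rose from 5.16 ± 0.126 TPM in LPS to 10.1 ± 0.0509 TPM in Met + LPS (log2 difference 0.84, adjusted p = 0.00043 in limma), and Naaa, an acid amidase of N-acylethanolamines, fell from 35.4 ± 1.41 to 19.0 ± 0.937 TPM (log2 difference -0.86, adjusted p = 9.3e-05 in limma). Cnr1, the other cannabinoid receptor, averaged 0.0312 TPM or less in every group and was not tested.

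Gpr84 (ENSMUSG00000063234, chromosome 15, 103308235 to 103310612) encodes a Gi-coupled receptor for medium-chain fatty acids that is induced in activated myeloid cells. It was at 1.07 and 0.728 TPM in untreated replicates 1 and 2, at 46.7 and 46.2 TPM in LPS, and at 14.3 and 15.3 TPM in Met + LPS. The 3 groups were separate, with LPS the highest. The untreated values rest on 14 and 9 reads and the LPS values on 613 and 582. LPS was 51.7-fold above untreated, with a 95% exact counting interval of 34.1 to 81.5, and Met + LPS was at 31.9% of the LPS level. The log2 differences were 4.65 and -1.59 (standard error 0.09 each). An antisense gene, Gm49482, overlaps the exons of Gpr84 and was listed at 0 in all libraries. Only 61.5% of the 31-base words of Gpr84 were found in no other gene on either strand, and how reads in the overlap were counted is not given in the sources used here, so the level of Gpr84 is uncertain.

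The genes nearest in pattern to Gpr84 by the same measure were Saa3, an acute-phase serum amyloid (0.15), Errfi1, an inhibitor of EGF receptors (0.19), the membrane-type matrix metalloproteinase Mmp14 (0.19), Snn (0.22) and the chemokine Ccl8 (0.22), against a median of 2.16. Saa3 was at 0.366 ± 0.0889, 34.2 ± 0.183 and 12.2 ± 1.02 TPM (SD, n = 2 each) in untreated, LPS and Met + LPS. The window of Gpr84, shown because this receptor stood past the cut-offs in both comparisons, held none of the 7 motifs either. The span given above for Gpr84 ends at 103310612, inside the bases shown. Part of the bases shown thus lies within the gene as listed and not before its start.
Gpr84, GRCm38.p6 chr15:103310439-103310688, minus strand: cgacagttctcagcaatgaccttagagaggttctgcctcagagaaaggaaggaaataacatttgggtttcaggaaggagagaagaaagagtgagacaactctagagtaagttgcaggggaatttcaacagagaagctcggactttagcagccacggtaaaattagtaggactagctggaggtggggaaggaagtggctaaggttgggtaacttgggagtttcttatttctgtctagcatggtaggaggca

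Hcar2 (ENSMUSG00000045502, chromosome 5, 123863570 to 123865499) encodes the Gi-coupled receptor of the ketone body β-hydroxybutyrate and of niacin. It was at 0.954 and 1.52 TPM in untreated libraries, at 40.9 and 36.1 TPM in LPS, and at 49.9 and 54.1 TPM in Met + LPS. Both Met + LPS libraries lay above both LPS libraries, and all 4 lay above the untreated libraries. LPS was 31.2-fold above untreated (95% exact counting interval 22.5 to 45.3 over reads), and Met + LPS was at 135% of the LPS level. The log2 differences were 4.15 and 0.42 (standard error 0.13 each). Gpr84 and Hcar2, both Gi-coupled receptors of energy metabolites that were near 1 TPM at baseline, thus stood on opposite sides of their LPS levels in Met + LPS. Hcar1, the neighbouring lactate receptor of the same family, was listed at 0 in all libraries. Bdh1, the mitochondrial enzyme that interconverts β-hydroxybutyrate and acetoacetate, was at 5.80 ± 0.983, 1.36 ± 0.0326 and 1.45 ± 0.127 TPM (SD, n = 2 each) and passed neither cut-off.

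Gpr35 (ENSMUSG00000026271, chromosome 1, 92950865 to 92986391) encodes a receptor that responds to tryptophan metabolites such as kynurenic acid. It was at 0.679 and 0.548 TPM in untreated libraries, at 0.217 and 0.142 TPM in LPS, and at 0 and 0.0934 TPM in Met + LPS. These values rest on 25 and 19, 8 and 5, and 0 and 4 reads. Both LPS libraries were lower than both untreated libraries and both Met + LPS libraries lower than both LPS libraries, but the counting interval of the ratio between Met + LPS and LPS ran from 0.0664 to 0.905.

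Gpr183 (ENSMUSG00000051212, chromosome 14, 121952551 to 121965195), also called EBI2, encodes the Gi-coupled receptor for oxysterols that guides the positioning of immune cells. It was at 17.9 and 14.9 TPM in untreated libraries, at 25.7 and 23.7 TPM in LPS, and at 8.43 and 5.67 TPM in Met + LPS. The LPS libraries were the highest and the Met + LPS libraries were below the untreated ones, with no overlap. The log2 differences were 0.57 between LPS and untreated and -1.70 between Met + LPS and LPS (standard error 0.17 each). The latter was close to the -1.59 of Gpr84, from which it differed by less than its standard error. Met + LPS was at 28.5% of LPS and 43.0% of untreated. With any one library removed, the difference lay from -1.95 to -1.45.

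Ch25h, the hydroxylase that starts the synthesis of the Gpr183 ligand 7α,25-dihydroxycholesterol, rose from 1.82 ± 0.502 to 52.3 ± 3.81 TPM after LPS (log2 difference 4.25, adjusted p = 3.1e-07 in limma) and was at 38.8 ± 1.17 TPM with metformin before LPS (SD, n = 2 each), and this difference of -0.42 missed the cut-offs. Cyp27a1, a sterol hydroxylase, was at 67.7 ± 0.853, 26.7 ± 0.621 and 17.1 ± 0.160 TPM in the 3 groups. Cyp7b1, a 7α-hydroxylase on the list, and Hsd3b7 averaged 0.0261 TPM or less in every group, and neither was tested. The amount of the ligand was not measured. Gpr18, the nearest tested gene on one side of Gpr183 at a distance of 36770 bases, rose after LPS (log2 difference 2.58, adjusted p = 2.9e-06 in limma) and fell in Met + LPS (-0.70, adjusted p = 0.0036 in limma), from 6.08 ± 0.452 to 3.36 ± 0.489 TPM. The latter call was lost with a pseudocount of 0.1, without a filter, in a fit of the compared groups only and without any one library other than Met + LPS replicate 1, with differences down to -0.59 without Met + LPS replicate 2.

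S1pr1 and S1pr2 encode receptors for sphingosine-1-phosphate, of which the first couples to Gi and drives egress and migration and the second also couples to G12/13 and restrains migration. S1pr1 (ENSMUSG00000045092, chromosome 3, 115710433 to 115715072) was at 94.5 and 95.4 TPM in untreated libraries, at 23.7 and 22.1 TPM in LPS, and at 15.6 and 15.5 TPM in Met + LPS. It was lower in LPS than in untreated and lower again in Met + LPS, with no overlap. Its log2 differences were -2.01 and -0.53 (standard error 0.05 each). The first was just past the cut-off of 2. It fell short of 2 after rescaling (-1.49) and without untreated replicate 2 or LPS replicate 2 (-1.96 without the latter). The LPS difference of S1pr2 fell short of the cut-off. S1pr2 (ENSMUSG00000043895, chromosome 9, 20962361 to 20976781) was at 80.0 and 82.2 TPM in untreated libraries, at 26.7 and 30.2 TPM in LPS, and at 31.8 and 32.7 TPM in Met + LPS. Unlike S1pr1, it was slightly higher in both Met + LPS libraries than in both LPS libraries. Its log2 differences were -1.48 and 0.18 (standard error 0.06 each). S1pr3, S1pr4 and S1pr5 each averaged 0.787 TPM or less in every group, and none of them was tested.

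The enzymes of sphingosine-1-phosphate differed from each other. Sphk1, an inducible sphingosine kinase, rose from 0.512 ± 0.0617 to 6.23 ± 0.325 TPM after LPS (log2 difference 2.26, adjusted p = 4.5e-06 in limma) and fell to 1.79 ± 0.253 TPM in Met + LPS (-1.38, adjusted p = 2e-04 in limma; SD, n = 2 each). Sphk2, the other kinase, was the more abundant, at 88.3 ± 2.38, 27.2 ± 1.27 and 35.7 ± 0.0802 TPM, and passed neither cut-off. Sgpl1, the lyase that degrades the lipid, was at 592 ± 4.01, 435 ± 13.3 and 513 ± 5.38 TPM. Plpp1, a lipid phosphate phosphatase, rose from 2.997 ± 0.523 to 6.52 ± 0.555 TPM between LPS and Met + LPS (log2 difference 0.92, adjusted p = 0.0013 in limma), a call lost without a filter and without Met + LPS replicate 2.

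S1pr2 is shown with its upstream sequence because it was 1 of the windows with a match. It held a cyclic AMP response element, the only one among the 10 windows, at positions -181 to -174 from the start (capitals), a word found in 1.79% of all 32851 promoter windows in the table.
S1pr2, GRCm38.p6 chr9:20976794-20977043, minus strand: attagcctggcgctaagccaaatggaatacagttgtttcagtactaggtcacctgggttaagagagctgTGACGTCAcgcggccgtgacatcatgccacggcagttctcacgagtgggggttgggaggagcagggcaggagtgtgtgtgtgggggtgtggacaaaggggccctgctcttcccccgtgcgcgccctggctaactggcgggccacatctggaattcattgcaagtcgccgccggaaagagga

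RefSeq windows were at hand for 8 of the 10 receptors, with 10 windows in all. The κB consensus, found in 4.51% of all windows, and the interferon-stimulated response element, found in 3.44%, were in none of the 10. AP-1 sites (7.81% of all windows) were found at C3ar1 and at the downstream start of Gpr35. PU.1 boxes (28.3%) were found at Ptafr and at the same Gpr35 window, the ATF4 element (3.97%) at Ptafr and TATAAA (13.6%) at C3ar1. These are matches of letters, not sites of binding. Some windows, such as those of Gpr35, Gpr84 and C5ar1, lie wholly or partly inside the gene spans given here.

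Ptafr (ENSMUSG00000056529, chromosome 4, 132564067 to 132582683) encodes the receptor of platelet-activating factor, a phospholipid mediator of inflammation. It was at 420 and 425 TPM in untreated libraries, at 534 and 522 TPM in LPS, and at 385 and 343 TPM in Met + LPS. The LPS libraries were the highest and the Met + LPS libraries the lowest, without overlap. The log2 differences were small, at 0.32 and -0.54 (standard error 0.05 each), and Met + LPS was at 69.0% of LPS. Lpcat1, a lysophosphatidylcholine acyltransferase that can form platelet-activating factor, fell from 66.6 ± 0.616 TPM in LPS to 29.9 ± 0.435 TPM in Met + LPS (log2 difference -1.13, adjusted p = 1.2e-05 in limma), below its untreated 34.9 ± 1.08 TPM. Lpcat2, another such acyltransferase, was at 26.3 ± 1.52, 22.7 ± 1.53 and 15.9 ± 1.08 TPM in untreated, LPS and Met + LPS and passed neither cut-off. Of the hydrolases that inactivate the lipid, Pafah1b3 fell between LPS and Met + LPS (log2 difference -0.72, adjusted p = 0.00051 in limma), a call lost without LPS replicate 1 (-0.65) or Met + LPS replicate 2 (-0.63), and the secreted Pla2g7 was at 30.3 ± 0.0426, 25.3 ± 0.0612 and 31.5 ± 1.46 TPM.

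C5ar1 and C3ar1 encode the receptors of the anaphylatoxins C5a and C3a, which draw and activate phagocytes. C5ar1 (ENSMUSG00000049130, chromosome 7, 16246743 to 16259540) was at 633 and 674 TPM in untreated libraries, at 1233 and 1289 TPM in LPS, and at 832 and 820 TPM in Met + LPS. LPS was the highest group and Met + LPS lay between LPS and untreated. Its log2 differences were 0.95 and -0.61 (standard error 0.04 each), and Met + LPS was at 65.5% of LPS. C3ar1 (ENSMUSG00000040552, chromosome 6, 122847138 to 122856161) was at 1403 and 1425 TPM in untreated libraries, at 804 and 792 TPM in LPS, and at 835 and 784 TPM in Met + LPS. It was lower in all 4 LPS-stimulated libraries, which overlapped between the groups with and without metformin. Its log2 differences were -0.82 and 0.02 (standard error 0.04 each). The LPS difference was -0.30 after rescaling.

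C3, the precursor of C3a, rose from 20.9 ± 1.62 to 430 ± 3.43 TPM after LPS (log2 difference 4.30, adjusted p = 8.8e-09 in limma) and was at 332 ± 3.69 TPM with metformin before LPS (SD, n = 2 each), and this difference of -0.37 was below the cut-off. C5ar2, the second C5a receptor, which does not couple to G proteins and lies 2589 bases from C5ar1, was at 12.1 ± 0.296 and 9.89 ± 0.105 TPM in untreated and LPS. It fell to 5.34 ± 0.909 TPM in Met + LPS (log2 difference -0.79, adjusted p = 0.0011 in limma), a call lost without Met + LPS replicate 2 (-0.64). Properdin (Cfp), which stabilizes the convertase that cleaves C3, was at 326 ± 8.75, 259 ± 14.8 and 176 ± 12.0 TPM and passed neither cut-off.

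**Figure D3:**
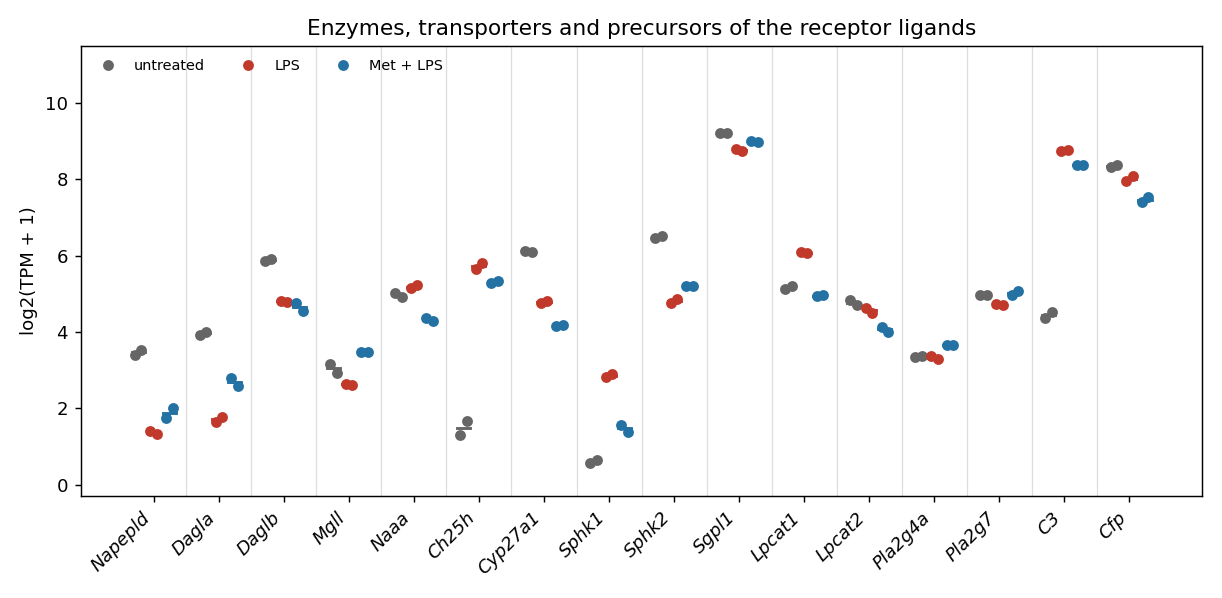
Transcript levels of 16 genes that make, carry or remove the ligands, as log2(TPM + 1) on the vertical axis, with 1 point per library, a bar at the mean of the 2 libraries and the groups in grey (untreated), red (LPS) and blue (Met + LPS). Ch25h, Sphk1 and C3 were higher in all LPS-stimulated libraries than in untreated ones. Dagla and Napepld were lower, as were Daglb, Cyp27a1, Sphk2, Sgpl1, Lpcat2 and Cfp.

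Over the list of ligand supply genes, 35 of 49 passed the filter on low values. After LPS 3 of the 35 rose (C3, Ch25h and Sphk1) and 2 fell (Dagla and Napepld), 14.3% against 6.08% of all tested genes, and the median log2 difference was -0.33 against -0.48. The list was chosen with results of these data known. Sphk1 passed the filter only through the LPS-stimulated groups, in which it was high. Nothing is read from the share in either comparison. Between LPS and Met + LPS 3 rose (Dagla, Plpp1 and Mgll) and 4 fell (Sphk1, Lpcat1, Naaa and Pafah1b3), 7 of 35 against 8.28% of all tested genes, with a median of -0.24 against -0.03.

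Of 32 related receptors, which are paralogs of the 10 genes or receptors of similar lipids and metabolites, 15 passed the filter. After LPS 5 of the 15 rose and 3 fell. Fpr2, a formyl peptide receptor, rose from 0.162 ± 0.229 to 16.9 ± 0.154 TPM (log2 difference 3.96, adjusted p = 1.5e-06 in limma), and Fpr1 rose from a value listed at 0 in both untreated libraries to 3.44 ± 0.184 TPM (adjusted p = 7.1e-05 in limma). Gpr132, a receptor of lactate and oxidized fatty acids, rose from 14.9 ± 0.182 to 171 ± 0.806 TPM (log2 difference 3.43, adjusted p = 4.6e-09 in limma). The receptors of lysophosphatidic acid split, with Lpar1 rising from 0.491 ± 0.0877 to 20.5 ± 0.0809 TPM and Lpar5 and Lpar6 falling from 61.2 ± 1.97 to 3.59 ± 0.545 TPM and from 25.7 ± 1.74 to 0.733 ± 0.0394 TPM (log2 differences 3.85, -3.76 and -3.95, largest adjusted p = 2.3e-07 in limma; SD, n = 2 each). Gpr65, a proton sensor, fell with a log2 difference of -2.17 (adjusted p = 7.1e-06 in limma), which was -1.66 after rescaling. The 8 calls were 53.3% of the list, which holds genes chosen as kin of the 10 receptors with results of these data known, against 6.08% of all tested genes, and the median log2 difference was -0.55. Fpr1, Fpr2, Gpr18 and Lpar1 passed the filter only through the LPS-stimulated groups, in which they were high, so nothing is read from this share.

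**Figure D4:**
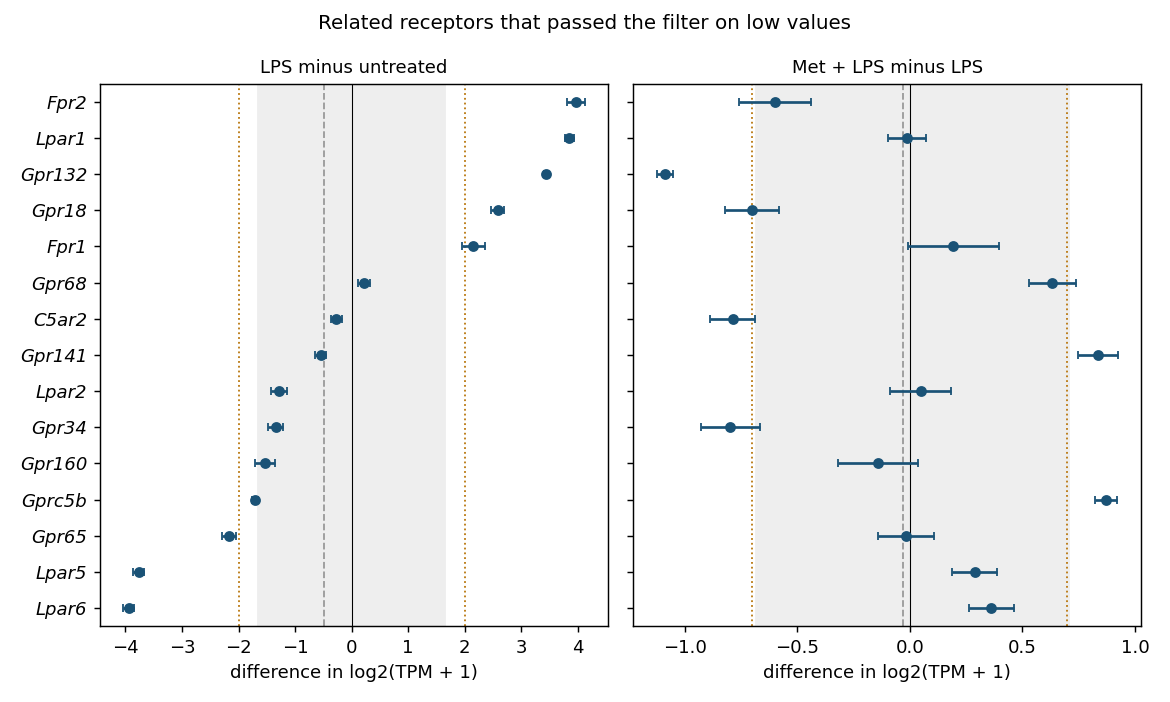
Differences in log2(TPM + 1) of the 15 related receptors that passed the filter between LPS and untreated (left) and between Met + LPS and LPS (right), with standard errors from the limma fit; the grey band spans the 5th to 95th percentile of all tested genes, the dashed line their median and the dotted lines the cut-offs. Fpr2, Lpar1, Gpr132, Gpr18 and Fpr1 lie beyond the upper cut-off in the left panel and Gpr65, Lpar5 and Lpar6 beyond the lower one.

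Between LPS and Met + LPS, 2 of the 15 related receptors rose and 4 fell, 40.0% against 8.28%, with a median of -0.01. The list was chosen with results of these data known. Gpr18 and Gpr34 passed the filter only through groups in which they were high, so nothing is read from this share either. Gpr132 fell from 171 ± 0.806 to 79.9 ± 1.65 TPM (log2 difference -1.09, adjusted p = 8.9e-06 in limma), together with C5ar2, Gpr18 and Gpr34, a lysophosphatidylserine receptor with 1.15 ± 0.238 TPM without and 0.235 ± 0.0261 TPM with metformin (-0.80, adjusted p = 0.0031 in limma). The call of Gpr34 was lost without a filter, in a fit of the compared groups only and without either untreated replicate, LPS replicate 1 or either Met + LPS replicate. Gprc5b rose from 15.4 ± 0.0723 to 29.1 ± 1.30 TPM (0.87, adjusted p = 4.2e-05 in limma) and Gpr141 from 2.01 ± 0.115 to 4.37 ± 0.112 TPM (0.84, adjusted p = 0.00048 in limma; SD, n = 2 each). Without Met + LPS replicate 2 the number of calls was 3 in place of 6. Lpar1, Lpar5 and Gpr65 had differences of -0.01, 0.29 and -0.02 and did not pass.

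Of 66 genes for G-protein subunits, arrestins, receptor kinases and effectors, 50 passed the filter. After LPS 1 of the 50 passed the cut-offs, 2.00% against 6.08% of all tested genes, and the median was -0.54. This was Pde4b, a phosphodiesterase that degrades cyclic AMP, which rose from 1.97 ± 0.373 to 72.3 ± 4.36 TPM (log2 difference 4.63, adjusted p = 6e-08 in limma). Between LPS and Met + LPS 3 passed, 6.00% against 8.28%, with a median of -0.10. Of these, Pde3b, another phosphodiesterase, rose from 1.88 ± 0.0377 to 5.02 ± 0.190 TPM (1.06, adjusted p = 0.00019 in limma), the adenylyl cyclase Adcy2 rose (0.77, adjusted p = 0.00093 in limma) and the β subunit Gnb4 fell (-0.73, adjusted p = 0.00023 in limma), a call lost without Met + LPS replicate 2 (-0.67). The most abundant members of the list were Gnai2, the main inhibitory α subunit of leukocytes, at 837 ± 0.463, 619 ± 0.244 and 508 ± 8.49 TPM in untreated, LPS and Met + LPS, Pik3r5, a regulatory subunit of the phosphoinositide 3-kinase that Gβγ activates, at 331 ± 9.59, 771 ± 7.21 and 592 ± 10.4 TPM, Gna13 at 213 ± 1.68, 411 ± 17.8 and 499 ± 20.9 TPM, and Gnb1 at 330 ± 0.343, 354 ± 6.71 and 329 ± 6.86 TPM (SD, n = 2 each). None of these 4 passed the cut-offs.

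The gene models share a feature that was not looked at in the choice, but all 10 were chosen from 1 class of receptors. Its share among other receptors of the class was not examined. In the GENCODE annotation the coding sequence lay in a single exon for 9 of the 10 receptors (C5ar1 has 2 coding exons), against 5.51% of 10889 tested protein-coding genes, and the encoded proteins had 307 (Gpr35) to 477 (C3ar1) residues. Between 96.9% and 100.0% of the 31-base words were found in no other gene for the receptors other than Gpr84. The nearest tested gene on each side was also examined for each receptor. Of these 20 neighbours 1 passed the cut-offs after LPS (Gpr18) and 2 between Met + LPS and LPS (Gpr18 and C5ar2), against 6.08% and 8.28% of all tested genes. Fuca1, which lies 528 bases from Cnr2, was at 265 and 266 TPM in untreated, 177 and 179 TPM in LPS and 143 and 147 TPM in Met + LPS, and Pnrc2 on the other side had a log2 difference of -1.25 after LPS, against -5.15 for Cnr2. Dnmt1, 2473 bases from S1pr2, was at 84.8 and 83.5 TPM in untreated, 28.6 and 28.5 TPM in LPS and 37.5 and 34.7 TPM in Met + LPS, levels close to those of S1pr2 in each group.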

How the data were processed

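Poly-A RNA was sequenced in single reads, which the authors aligned to GRCm38 (annotation release 94) with STAR 2.6.1d, counted per gene with featureCounts of Subread 1.6.3, and deposited TPM values for 54532 genes in 6 libraries, without pooling replicates. The step from counts to TPM is not given in the sources used here. The authors tested counts with DESeq2, which TPM values do not allow.

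Genes that reached 1 TPM in 2 or more libraries were tested with limma 3.58.1 (R 4.3.3) on log2(TPM + 1), lmFit and eBayes with trend, all 6 libraries in 1 fit and no covariate, with Benjamini-Hochberg adjustment over 12755 genes and the cut-offs of the study, an absolute log2 fold change of 2 or 0.7 and an adjusted p-value under 0.01. With 2 libraries against 2, the smallest two-sided exact permutation p-value is 0.333. The receptors and the gene lists were chosen with earlier results of these data known. Named were the receptors, the called genes of each list (up to 8 per list and comparison, or the 4 most abundant where few were called) and the 5 genes nearest in pattern to Cnr2 and Gpr84. Other genes of these lists, neighbouring genes and markers are named outside this rule and were picked after their values were seen.

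Reads were recovered from TPM and GENCODE exon lengths. Between 96.4% and 96.6% of values above 0 were within 0.05 of a whole read. Counting intervals are exact 95% intervals and cover counting error only. Over genes, duplicates differed by more than counting error, with a chi-square per degree of freedom of 1.94 in untreated, 3.44 in LPS and 3.63 in Met + LPS. The intervals may thus be too narrow for the spread between libraries. The fit was also run on simulated reads with known changes, with the same dispersion for all genes and without the shift of the median gene. No result rests on that run. Python 3.11.15 with scipy 1.17.1 made the tables. Promoter sequences are those of RefSeq on GRCm38.p6. The alternatives are named in the closing section.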

Additional observations from a re-analysis of the deposited data

How the results depend on the processing

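Over the 14 settings in processing and left-out libraries, the directions of the 9 tested receptors held, other than that of C3ar1 between Met + LPS and LPS, whose difference of 0.02 ranged from -0.02 to 0.07 when each library was left out. The number of called genes after LPS was 776, and it was 1512 with a pseudocount of 0.1, 1596 with voom on recovered reads and 3556 with a log2 cut-off of 1. That cut-off also gave 11 ligand supply genes in place of 5 and 15 G-protein signalling genes in place of 1, for which rescaling by the median ratio gave 2. Between Met + LPS and LPS a cut-off of 1 gave 455 of 1056 genes, 1 of 6 related receptors, 2 of 7 ligand supply genes and 1 of 3 G-protein signalling genes. Leaving out each library gave 3 to 5 related receptors, 5 to 7 ligand supply genes and 2 to 4 G-protein signalling genes. An adjusted p-value cut-off of 0.05, no filter, a minimum of 5 TPM, eBayes without a trend and a fit of the compared groups only moved no such count by over 1.5 times. Sample titles number the libraries of replicate 1 (letter A) in a run through the groups, then those of replicate 2 (letter B). Whether libraries with the same replicate number form pairs is not given in the sources used here. Their deviations correlated at -0.0037 to 0.03 over genes, which cannot settle the question. With the replicate block 4 receptors were called after LPS and 2 between Met + LPS and LPS, as without it. The calls over all genes with the block were 777 and 1044. The block changed the call of no named gene. Rescaling moved the calls after LPS from 474 genes higher and 302 lower to 663 genes higher and 129 lower. Low reads limit Gpr35, and Cnr2 in LPS.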

Other observations

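Among markers of cell types other than macrophages, Kit and Lck passed the cut-offs, and both are named because of it. Kit, the receptor of stem cell factor and a marker of mast cells and precursors, was at 19.6 ± 0.149 TPM in untreated and 7.96 ± 0.0563 TPM in LPS and rose to 23.6 ± 0.881 TPM in Met + LPS (SD, n = 2 each; log2 difference 1.45 between Met + LPS and LPS, adjusted p = 1.1e-05 in limma), while the mast cell markers Mcpt4 and Fcer1a were at 0 in all libraries and the 6 markers of the list summed to 20.6 to 21.1, 8.18 to 8.31 and 23.2 to 24.4 TPM. Lck, a kinase of T cells, rose from 0.854 ± 0.0621 to 12.1 ± 0.286 TPM after LPS and fell to 5.60 ± 0.447 TPM in Met + LPS (log2 differences 2.82 and -0.99, adjusted p = 4.5e-07 and 0.00022 in limma), while the 8 T and NK cell markers together, Lck included, reached at most 12.6 TPM and Cd3g was at 0. Lck, too, passed the filter only through the LPS-stimulated groups. Neutrophil and precursor markers summed to 30.2 to 32.9, 26.7 to 28.2 and 43.6 to 45.9 TPM in the 3 groups, fibroblast and endothelial markers to 26.5 to 27.9, 21.8 to 24.3 and 33.2 to 35.0 TPM, dendritic cell markers to at most 2.88 TPM and erythroid and megakaryocyte markers to at most 1.035 TPM. Kdr alone reached 33.7 TPM and was the only 1 of the 7 fibroblast and endothelial markers to pass the filter. The highest single level among the neutrophil and precursor markers was 17.45 TPM, of Elane.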
